A study of Mus musculus with 35 samples.

Results

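The 10 genes of thymidylate synthesis, pyrimidine salvage and fluoropyrimidine handling followed here were Tyms, Tk1, Umps, Upp1, Dpyd, Dut, Rrm1, Rrm2, Tymp and Dck. They were taken by name, with no threshold on a measured value, though with earlier results of these data known, and were 10 of the 54354 genes in the count table. Polyadenylated RNA had been sequenced from mouse colon tumour organoids, which are epithelial cultures grown in vitro. All organoids, controls included, carried the genotype labelled AKP, and the labels give neither the alleles behind that name nor a dose, vehicle or time of treatment. The treated groups were palmitic acid batch 1 (3 libraries) and palmitic acid batch 2 (2), both set against the 3 palmitic acid controls, which the labels assign to neither batch. Carmofur organoids (15 libraries) were set against their own 12 controls. Palmitic acid is a saturated fatty acid from which cells make ceramides. Carmofur inhibits acid ceramidase and is also a masked form of fluorouracil.

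Fluorouracil acts through the enzymes followed here. Thymidylate synthase (Tyms) methylates deoxyuridylate to thymidylate, and the fluorinated nucleotide made from fluorouracil holds it in an inactive complex. Uridylate synthase (Umps) and uridine phosphorylase (Upp1) carry the base into nucleotides, thymidine phosphorylase (Tymp) links it to deoxyribose, and dihydropyrimidine dehydrogenase (Dpyd) breaks it down. Ribonucleotide reductase, built from a large subunit (Rrm1) and a small subunit (Rrm2), makes the deoxynucleotides. Thymidine kinase (Tk1) and deoxycytidine kinase (Dck) salvage nucleosides, and dUTPase (Dut) keeps deoxyuridine triphosphate low.

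Total estimated counts per library ran from 2138905 to 2845017 in batch 1, 2406582 to 3742289 in batch 2 and 762888 to 2511723 in the palmitic acid controls. They ran from 3127275 to 10609563 with carmofur and 1663750 to 8124707 in its controls. Levels are counts per 1000000 counted (CPM) after TMM scaling, and the floor of a count of 0 is 3 counts, which covers counting error only because the reads carry no molecular identifiers. Whether the libraries of 1 group stem from different cultures is not stated, and a p-value therefore reflects library-to-library spread that could be technical. Of 11 epithelial markers, 10 were detected in every group and Cdx1 was at 0 in batch 2. Their summed level ran from 1754 to 2656 CPM with carmofur and 1624 to 2424 CPM in its controls. Of 11 mesenchymal markers 7 were at 0 with carmofur and 7 in its controls, the collagens Col1a1 and Col1a2 in both, and the summed level of 8.69 to 76.1 CPM with carmofur and 3.78 to 67.6 CPM in controls was nearly all Vim. Of 16 immune markers 8 were at 0 with carmofur and 13 in its controls, Cd3e in both, and the sum of 57.9 to 258 CPM with carmofur and 84.8 to 225 CPM in controls was nearly all Cd14 and Cd68. In these bulk samples fewer cells of a type and less RNA per cell cannot be told apart. Palmitic acid control 1 and carmofur 8 and 10 stood apart from the other libraries in principal components, carmofur control 9 less so, and carmofur control 1 was the shallowest library of its experiment. The libraries of the carmofur experiment carry numbers that fall into 9 sets of 3 and into 3 blocks, each a run of 12 numbers. Some numbers of each run have no library in the series. Block 1 held 6 carmofur and 3 control libraries, block 2 held 6 and 3, and block 3 held 3 and 6. The labels do not state that the blocks are batches.

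The windows of 250 bases before the start sites of Rrm2, Rrm1, Tyms and Umps are shown because these are the subunit pair and the pair of enzymes whose levels the results below turn on. The sequences are from RefSeq on GRCm38.p6, written 5′ to 3′ on the strand of the gene. Capitals mark the letters CCAAT, known as the CCAAT box, the E-box word CACGTG and the GC-box word GGGCGG, searched on both strands.
Rrm2, chr12:24708004-24708253, plus strand: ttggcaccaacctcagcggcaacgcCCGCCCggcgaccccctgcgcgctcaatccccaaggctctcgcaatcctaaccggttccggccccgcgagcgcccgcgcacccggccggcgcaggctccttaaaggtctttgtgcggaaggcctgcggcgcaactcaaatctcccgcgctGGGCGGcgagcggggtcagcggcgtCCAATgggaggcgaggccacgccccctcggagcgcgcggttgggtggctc
Rrm1, chr7:102441445-102441694, plus strand: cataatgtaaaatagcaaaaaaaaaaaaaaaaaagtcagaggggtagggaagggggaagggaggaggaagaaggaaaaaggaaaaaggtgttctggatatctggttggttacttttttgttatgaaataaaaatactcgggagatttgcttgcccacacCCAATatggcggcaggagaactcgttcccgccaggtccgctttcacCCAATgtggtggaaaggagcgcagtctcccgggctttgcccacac
Tyms, chr5:30073626-30073875, minus strand: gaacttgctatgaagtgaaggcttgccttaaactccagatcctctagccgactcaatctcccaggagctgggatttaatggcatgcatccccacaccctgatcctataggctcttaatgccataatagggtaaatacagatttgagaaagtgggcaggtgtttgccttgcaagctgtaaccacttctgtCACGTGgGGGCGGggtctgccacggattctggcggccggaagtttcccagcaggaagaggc
Umps, chr16:33967039-33967288, minus strand: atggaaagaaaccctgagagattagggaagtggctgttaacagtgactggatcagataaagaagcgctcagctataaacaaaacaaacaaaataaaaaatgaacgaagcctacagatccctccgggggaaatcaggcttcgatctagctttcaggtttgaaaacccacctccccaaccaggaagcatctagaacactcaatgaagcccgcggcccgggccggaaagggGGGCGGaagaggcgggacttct
The Rrm2 window held 1 CCAAT box, 50 bases before the start site, and the Rrm1 window held 2, at 91 and 45 bases. Of all 32536 windows of this length, 33.8% held a CCAAT box. The Tyms window held the only CACGTG among the 12 windows of the 10 genes, 61 bases before the start, and 6.04% of all windows held one. Rrm2, Tyms and Umps each held GGGCGG, as did 33.0% of all windows. The E2F words TTTCCCGC, TTTCGCGC, TTTGCCGC and TTTGGCGC were in 0 of the 12 windows and in 1.87% of all windows. A match is a description of these letters only.

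In the control organoids the enzymes fell into a high and a low class. Per kilobase of transcript, Rrm2 averaged 178 ± 50.1 CPM, Tk1 153 ± 23.2 and Tyms 142 ± 18.9 in the carmofur controls (mean ± SD, n = 12). These 3 neighbours lay within each other's spread. Rrm1 followed at 89.9 ± 19.1 CPM per kilobase. The low class came next, with Umps at 16.8 ± 4.06, Upp1 at 14.7 ± 7.67, Dck at 12.3 ± 3.76 and Dut at 11.2 ± 7.33 CPM per kilobase, again within each other's spread. The palmitic acid controls had Rrm2, Tk1, Tyms and Rrm1 on top in the same order (n = 3).

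Dpyd and Tymp, the catabolic enzyme and the phosphorylase of thymidine, were not measurable and did not pass the filter on low counts. Dpyd had 1 estimated count among 94684779 in the carmofur libraries and 0 of 64179871 in the carmofur controls, where 3 counts would be 0.0467 CPM. It had 0 counts in all palmitic acid and palmitic acid control libraries. Tymp had 7 counts in palmitic acid batch 1 replicate 1 and 0 in each of the other libraries. Tymp overlaps Sco2, a copper chaperone gene on the same strand, and Ncaph2 on the opposite strand, so its few counts are uncertain. The other 8 genes were tested in every comparison.

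The carmofur comparison addressed how a ceramidase inhibitor that is also a fluoropyrimidine changes the organoid transcriptome. Of the 8 tested enzymes 2 rose, Rrm2 and Umps, against 5.21% of all 9992 genes tested higher and 9.02% in either direction (quasi-likelihood test of edgeR, adjusted by Benjamini-Hochberg over all genes tested, threshold 0.05, as for all adjusted p-values here). The target enzyme Tyms did not pass over all 15 libraries. All 8 fold changes were above 1, as were those of 5013 of the 9992 genes. The median log2 fold change was 0.18, beside 0.002 over all genes. Those of Tyms, Dut and Dck fell below 0 without 1 library set (set 8 for Tyms, 1 or 3 for Dut, 9 for Dck). In block 2 alone those of Tyms, Tk1, Umps, Dut, Rrm1 and Dck were below 0.

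Rrm2, the small subunit of ribonucleotide reductase that is made as cells replicate their DNA (ENSMUSG00000020649, mm10 chromosome 12, 24708241 to 24714146), was the enzyme that responded most. It lay at 413 CPM in the lowest, 705 in the median and 1220 in the highest carmofur library, against 238, 420.1 and 533 CPM in the controls. Of the 15 carmofur libraries 12 exceeded every control and 14 exceeded the control median, a separation of at least 12 libraries that 1.92% of all tested genes reached. The mean was 771 ± 254 CPM with carmofur and 389.7 ± 109.9 CPM in controls (SD, n = 15 and 12), a fold change of 1.97 with a 95% interval of 1.57 to 2.47 and an adjusted p of 3.61e-05. The call held under all 22 alternatives run, with log2 fold changes from 0.79 to 1.39, the lowest without library set 8 and the highest in block 3 alone. Over these alternatives the adjusted p ran from 5.51e-08 to 0.0480, the latter just under the threshold.

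Its partner Rrm1, the large subunit with the catalytic and regulatory sites (chromosome 7, 102441695 to 102469771), spanned 223 to 550.5 CPM with carmofur and 256 to 487 CPM in controls. The groups overlapped almost fully. The log2 fold change was 0.17 with a 95% interval of -0.07 to 0.42 (adjusted p = 0.495). Rrm2b, the small subunit that acts outside S phase, averaged 21.1 ± 9.22 CPM with carmofur and 16.0 ± 10.1 CPM in controls, with 0.40 as log2 fold change (adjusted p = 0.607).

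The ratio between the subunit transcripts therefore differed between groups. This comparison was chosen after the values were seen, and sets a gene that passed against 1 that did not. The ratio of Rrm2 counts to Rrm1 counts had a median of 1.83 with carmofur (1.12 to 2.997) and 1.09 in controls (0.538 to 1.90). Averaged over each library set, the log2 ratio lay between 0.52 and 1.34 in the 5 carmofur sets and between -0.11 and 0.26 in the 4 control sets, which do not overlap. The difference of 0.81 had p = 0.0159 by a two-sided exact permutation test over the 9 sets, the smallest p that this test allows. Sets were exchanged freely between library blocks, so that this p does not take the blocks into account. The same permutation test on Rrm2 over Tyms gave a difference of 0.87 (p = 0.0159), so the shift was not particular to the subunit pair. Umps over Tyms gave 0.43 (p = 0.111). With palmitic acid the ratio of Rrm2 to Rrm1 ran from 0.906 to 1.11 in batch 1 and 0.882 to 0.943 in batch 2. In the palmitic acid controls it ran from 0.766 to 1.38.

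**Figure D1:**
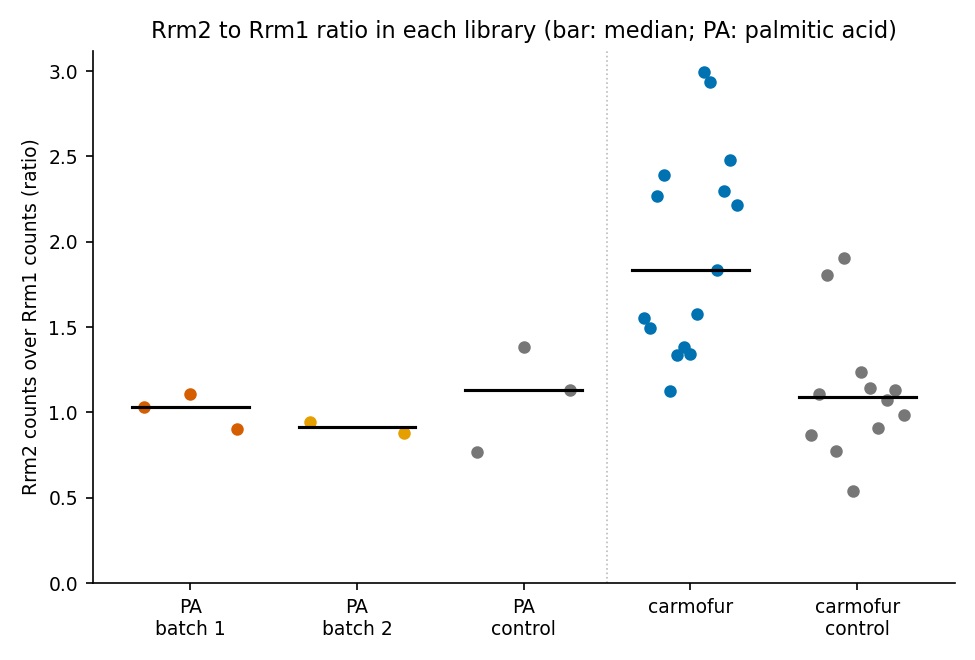
Ratio of Rrm2 to Rrm1 estimated counts in each of the 35 libraries, by group (points: libraries, bar: median, dotted line: boundary between experiments). The carmofur median of 1.83 lies above the control median of 1.09, and all libraries treated with palmitic acid lie at 1.11 or below.

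Umps, the enzyme that joins orotate to phosphoribose and decarboxylates the product, and that also carries fluorouracil into nucleotides (ENSMUSG00000022814, chromosome 16, 33954782 to 33967038), lay at 28.03, 84.4 and 159 CPM in the lowest, median and highest carmofur library. The controls lay at 36.3, 57.6 and 76.3 CPM. Of 15 carmofur libraries 8 exceeded every control, while 2 lay below every control. The mean was 94.4 ± 47.0 CPM with carmofur and 58.4 ± 14.1 CPM in controls, a fold change of 1.61 with a 95% interval of 1.17 to 2.20 and an adjusted p of 0.0471. The call was lost with RLE size factors (adjusted p = 0.0501), with counts summed by library set (0.339), with the library set as a correlated group (0.209), and without library set 1, 2, 3, 4, 7, 8 or 9 (0.0677 to 0.261). With the replicate number as a covariate (the replicate block) the log2 fold change was 0.32 (0.490), though these numbers did not pair libraries. It was 0.997 (0.0924) in library block 1 alone and -0.44 (0.671) in library block 2 alone. The call held in 9 of 22 alternatives.

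Tyms, the fluoropyrimidine target (ENSMUSG00000025747, chromosome 5, 30058202 to 30073617), lay at 299, 499 and 677 CPM in the lowest, median and highest carmofur library, against 375, 435 and 547 CPM in controls. Carmofur libraries were found on both sides of the control range, 5 above every control and 3 below every control. The log2 fold change over all libraries was 0.12, with a 95% interval of -0.09 to 0.34 (adjusted p = 0.625). A separate pseudogene, Tyms-ps, held 44 counts over the 35 libraries.

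The salvage kinases and the remaining enzymes did not pass. Tk1, the S-phase thymidine kinase, averaged 251 ± 60.6 CPM with carmofur and 219.6 ± 33.4 CPM in controls (log2 fold change 0.19, 95% interval -0.04 to 0.41, adjusted p = 0.408). Its gene overlaps Afmid and Gm20708 on the opposite strand, which held 764 and 686 counts over all libraries, beside 24361 for Tk1 in the carmofur libraries alone. Dck averaged 40.3 ± 16.0 CPM with carmofur and 37.7 ± 11.6 CPM in controls. Upp1 averaged 23.9 ± 9.74 CPM with carmofur and 18.8 ± 9.79 CPM in controls. Dut averaged 23.1 ± 10.4 CPM with carmofur and 21.9 ± 14.3 CPM in controls. For Upp1, Dut and Dck the 95% intervals of the fold change ran from 0.808 to 1.97, 0.669 to 1.63 and 0.780 to 1.46. Folds within these intervals are not excluded.

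**Figure D2:**
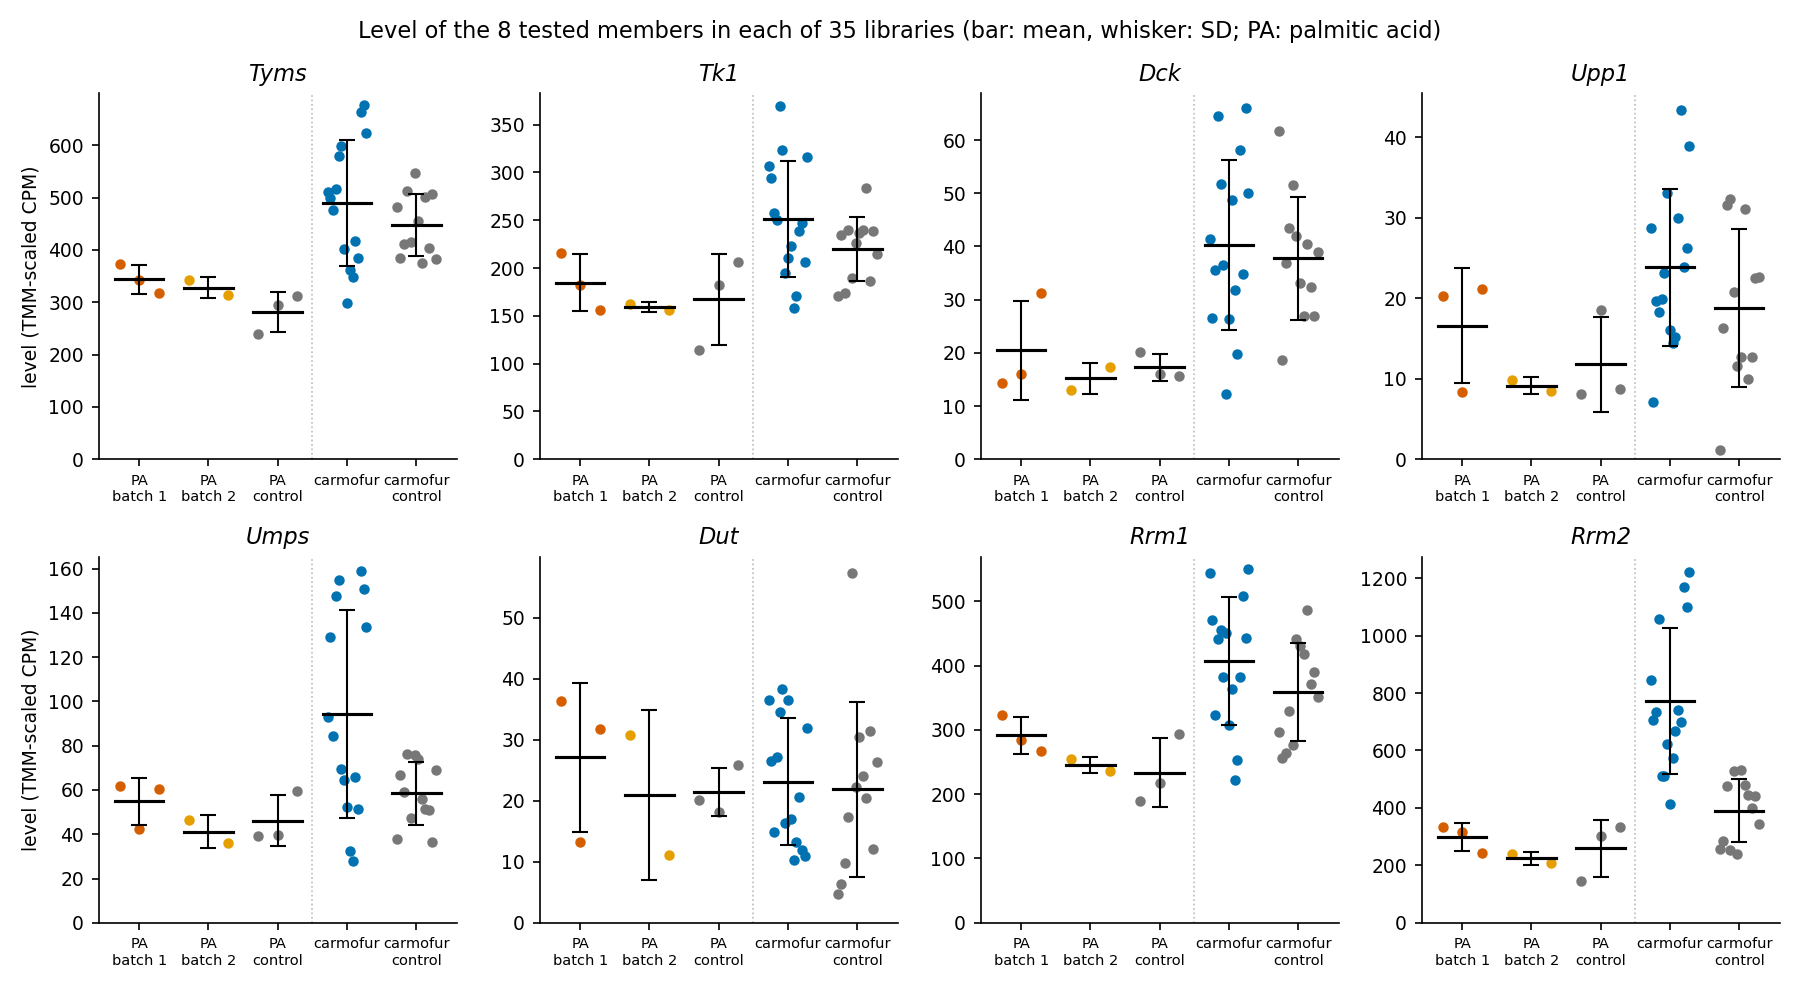
Level of the 8 tested enzymes in each library, in TMM-scaled CPM on a linear axis from 0, for palmitic acid (PA) batch 1, batch 2 and control, then carmofur and its control (points: libraries, bar: mean, whisker: SD). Rrm2 has the highest number of carmofur libraries above all controls (12 of 15), ahead of Umps (8 of 15). The carmofur libraries of Tyms and Umps spread to both sides of their controls.

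The wide spread of Tyms and Umps under carmofur followed the blocks of library numbers. A test of whether the carmofur effect differed between blocks, added after the data were seen, called 178 of 9992 genes (1.78%), and 2 of the 8 enzymes were among them, Tyms (adjusted p = 0.00124) and Umps (adjusted p = 0.0150). Both enzymes were higher with carmofur in blocks 1 and 3 and lower in block 2, although not every block passed on its own. The median log2 fold change over all genes was 0.03 in block 1, 0.03 in block 2 and -0.03 in block 3.

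In block 1 Tyms lay at 477, 513 and 598 CPM (lowest, median, highest of 6 carmofur libraries) against 384, 411 and 482 CPM in the 3 controls. In block 2 it lay at 299, 373 and 416 CPM with carmofur against 414, 512 and 547 CPM in controls. In block 3 the 3 carmofur libraries had 623, 664 and 677 CPM, against a lowest, median and highest control of 375, 429 and 506 CPM. The carmofur means of blocks 1, 2 and 3 were 529.8 ± 47.9, 368 ± 42.1 and 655 ± 28.3 CPM, against control means of 426 ± 50.8, 491 ± 68.99 and 437 ± 58.4 CPM, and the controls of the blocks overlapped each other. In block 1, 5 of 6 carmofur libraries lay above every control, 5 of 6 lay below every control in block 2, and all 3 lay above every control in block 3. In block 3 all carmofur libraries exceeded all controls in 7.42% of all tested genes. The log2 fold changes were 0.29 ± 0.12 (SE, adjusted p = 0.316), -0.42 ± 0.12 (adjusted p = 0.0218) and 0.59 ± 0.12 (adjusted p = 0.00113) in blocks 1, 2 and 3. With block 2 fitted alone the Tyms value was -0.41 and did not pass (adjusted p = 0.136).

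Umps had the same order. Its carmofur means were 113 ± 35.7 CPM in block 1, 49.0 ± 15.9 in block 2 and 148 ± 12.9 in block 3, against control means of 54.7 ± 15.1, 66.6 ± 16.5 and 56.2 ± 13.6 CPM. All carmofur libraries of blocks 1 and 3 lay above every control of their block (in block 1, 4.96% of all tested genes did so), and 2 of 6 lay below every control in block 2. The log2 fold changes were 1.01 ± 0.30 (adjusted p = 0.0836), -0.45 ± 0.29 (adjusted p = 0.462) and 1.40 ± 0.28 (adjusted p = 0.000863).

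Rrm2 was higher with carmofur in each block. Its log2 fold changes were 1.08 ± 0.23 (adjusted p = 0.00828), 0.86 ± 0.23 (adjusted p = 0.0145) and 1.41 ± 0.21 (adjusted p = 1.74e-05), beside 1.76%, 8.14% and 6.06% of all genes called in blocks 1, 2 and 3. Its effect did not pass the test of a difference between blocks (adjusted p = 0.751), which does not show that the effects were equal. All 6 carmofur libraries of block 1, 5 of 6 of block 2 and all 3 of block 3 exceeded every control of their block.

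The other enzymes did not pass the test of a difference between blocks, though Dut came near it (adjusted p = 0.0599) and passed without library set 5 (adjusted p = 0.0322) and without carmofur 8, carmofur 10 and carmofur control 9 (0.0470). Dut had 29.6 ± 8.72 CPM with carmofur in block 1, against 6.90 ± 2.62 CPM in the controls, which were the 3 lowest of the 27 libraries for this gene. Its log2 fold change there was 2.05 ± 0.56 (adjusted p = 0.0492), and -0.79 ± 0.49 and -0.40 ± 0.51 in blocks 2 and 3. Rrm1 was higher in block 1 (0.66 ± 0.17, adjusted p = 0.0374), with -0.09 ± 0.17 and 0.30 ± 0.17 in the other two, and Tk1 had 0.61 ± 0.17 (adjusted p = 0.0534), -0.14 ± 0.16 and 0.14 ± 0.16. For Dut, Rrm1 and Tk1 the controls of block 1 had lower means than those of blocks 2 and 3.

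**Figure D3:**
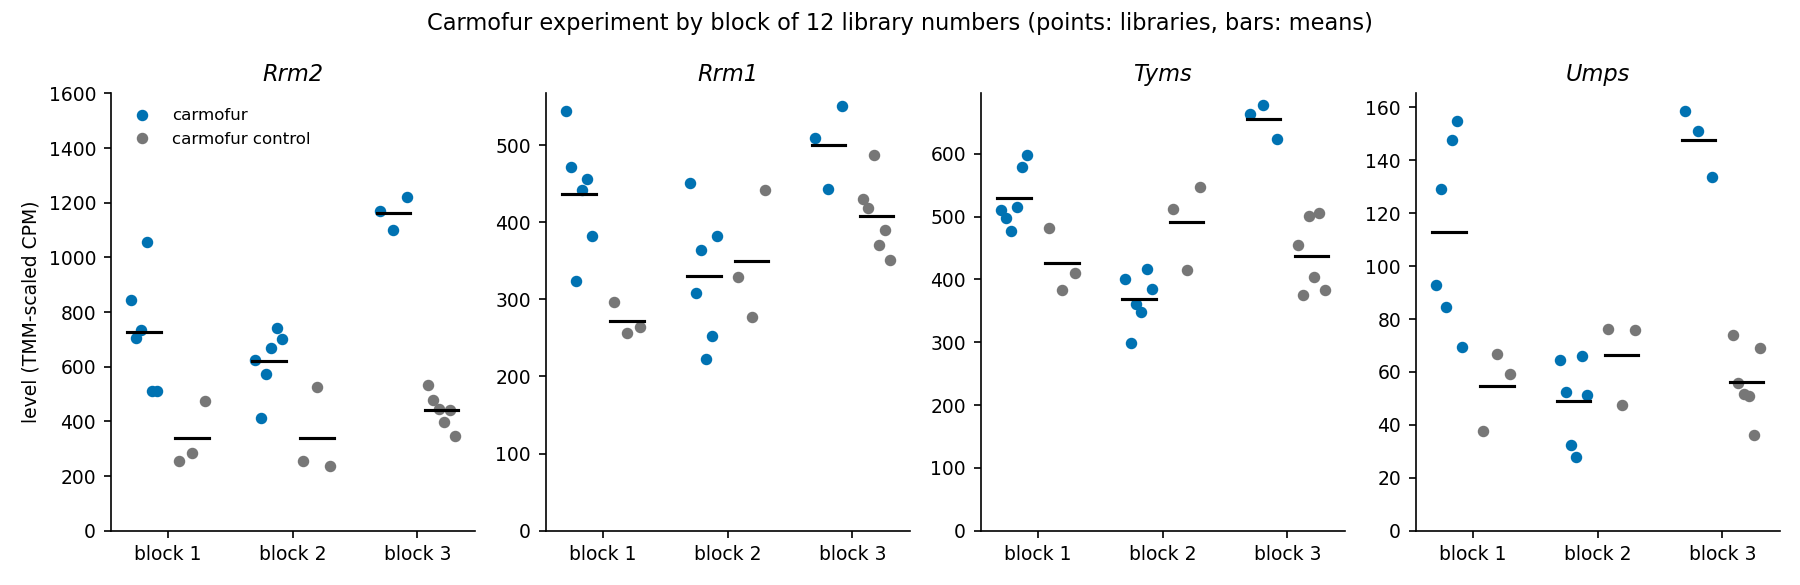
Level of Rrm2, Rrm1, Tyms and Umps in the carmofur experiment, split by block of 12 library numbers, in TMM-scaled CPM on linear axes from 0 (points: libraries, bars: means). Rrm2 lies higher with carmofur in each block, whereas Tyms and Umps lie lower on average in block 2 and higher in blocks 1 and 3.

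**Figure D4:**
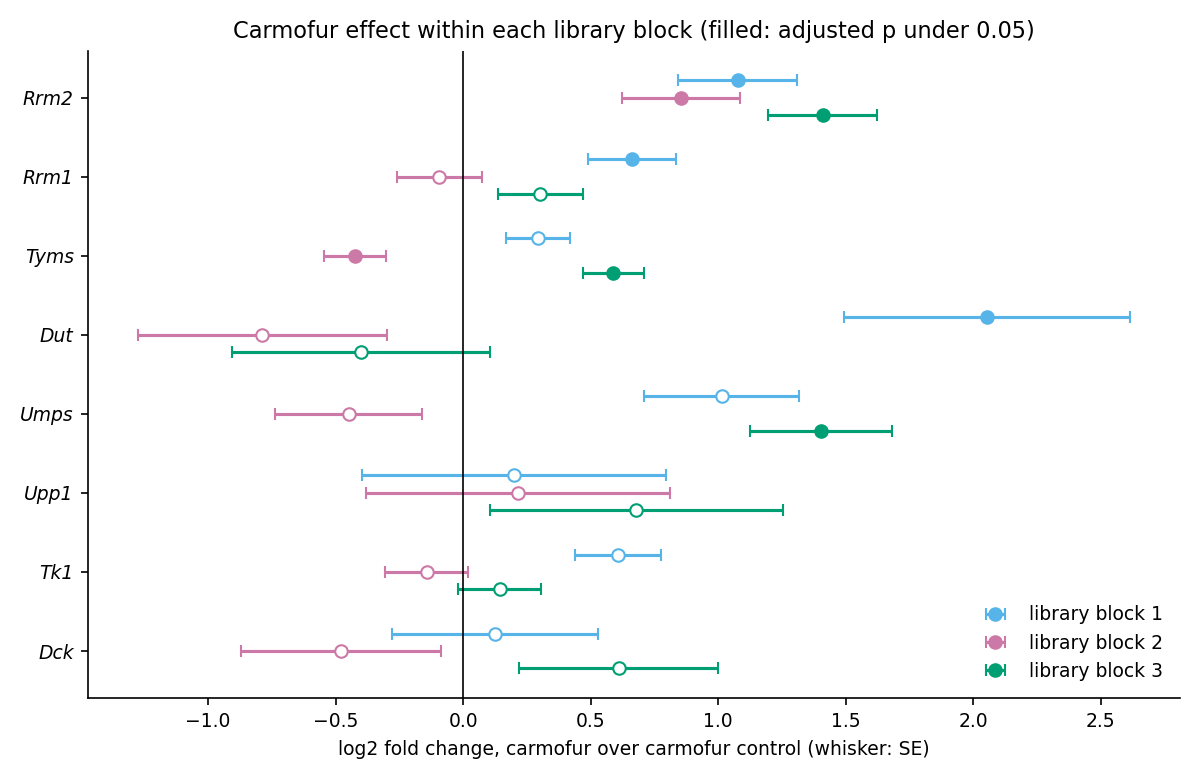
Log2 fold change of carmofur over its control within each library block for the 8 tested enzymes (whiskers: SE, filled points: adjusted p under 0.05). The values of Rrm2 lie between 0.86 and 1.41, and those of Tyms at 0.29, -0.42 and 0.59.

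The difference between blocks held for Tyms and Umps with RLE size factors, with library-size scaling, without carmofur 8, carmofur 10 and either carmofur control 1 or 9, and without any of library sets 2, 3, 5, 6, 7 and 9 in turn (adjusted p of 0.000715 to 0.00499 for Tyms and 0.0114 to 0.04997 for Umps). With counts summed by library set, which leaves 9 samples, neither passed (adjusted p = 0.595 for both, 0 genes called). Library sets 1, 4 and 8 could not be left out, since each was the only set of its group in its block. A difference between single sets and a difference in the carmofur effect between blocks therefore cannot be told apart. Apart from the summed counts, the fits by block counted each library as a replicate. Blocks differ in library number, and block 3 differs from blocks 1 and 2 in the share of treated libraries. What else differs between them cannot be told apart.

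Across the carmofur-experiment libraries, with each group's mean removed, the genes whose levels went most closely with Tyms were Hnrnpa2b1 (Pearson's r = 0.84), Hspe1 (0.82), Mrpl35 (0.81), Psmc3 (0.80) and Nme1 (0.80), of 6382 genes with a mean of at least 10 CPM over 27 libraries. For Umps they were Nme1 (0.84), Olfr1388 (0.83), Nolc1 (0.78), Psmc5 (0.77) and Cycs (0.77). Umps stood 34th for Tyms with r = 0.70, and Rrm1 and Tk1 stood 125th and 243rd with 0.59 and 0.52. Rrm2 stood 902nd with r = 0.33. For Upp1 the closest genes were Clk1 (0.82), Gnai1 (0.77), Rps27rt (0.77), Ppfibp1 (0.75) and Ube3c (0.74). For Upp1 Spearman's rho for the same genes was lower, at 0.32 to 0.56, and whether few libraries carry these correlations was not tested. These correlations share libraries, depth and blocks and are descriptions only.

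Around these enzymes, some genes of nucleotide metabolism passed under carmofur, in shares to be read against the 9.02% of all genes that passed. Samhd1, which breaks deoxynucleotide triphosphates down to nucleosides, rose to 272 ± 70.3 CPM with carmofur, against 131 ± 23.8 CPM in controls (log2 fold change 1.06 ± 0.13, adjusted p = 1.16e-07), as 1 of 10 tested genes of nucleotide and pyrimidine breakdown that passed. Of the 14 tested folate and thymidylate genes 1 rose and 2 fell, with a median log2 fold change of -0.39. Without 1 library set 2 to 6 passed, the 6 without set 5. At an unadjusted p under 0.05 there were 6 of the 14, beside 19.0% of all genes. Ggh, which trims the glutamate tail of folates, rose to 204 ± 52.4 CPM with carmofur, against 75.0 ± 24.1 CPM in controls (1.44 ± 0.17). Of the mitochondrial folate enzymes, Mthfd2 fell to 68.5 ± 26.9 CPM with carmofur, against 152 ± 38.4 CPM in controls (-1.15 ± 0.18). Shmt2 fell to 17.9 ± 11.04 CPM with carmofur, against 36.7 ± 12.8 CPM in controls (-1.05 ± 0.32, adjusted p = 0.0312). Shmt2 did not pass without library set 2, 3, 4 or 7.

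Umps was the 1 gene of 5 in de novo pyrimidine synthesis that passed, and Gmps, the last step to GMP, was the 1 gene of 13 in purine synthesis that passed, lower with carmofur (-0.41 ± 0.12, adjusted p = 0.0184). Of 7 tested nucleoside transporters and exporters, Abcc5 rose to 18.2 ± 9.95 CPM with carmofur, against 6.48 ± 4.70 CPM in controls (1.47 ± 0.45, adjusted p = 0.0276). None of 14 nucleoside and nucleotide kinases passed, with 1 at an unadjusted p under 0.05 (19.0% of all genes) and 0 by DESeq2, and Dtymk, the kinase after Tyms, had 0.90 ± 0.32 (adjusted p = 0.0771). None of 12 uracil base-excision genes passed, with 1 at an unadjusted p under 0.05 and 0 by DESeq2. Gmps lost its call without library set 2, 4, 6 or 7 and with counts summed by set (adjusted p = 0.219), and held it in 13 of 22 alternatives. Abcc5 lost its call without set 3, 4, 6, 7 or 9, with the set as a correlated group (0.165), with summed counts (0.109) and with the replicate block (0.0969), and held it in 9 of 22.

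Some cell-cycle genes rose beside Rrm2, whose transcript is itself made in S phase. Of 30 tested S-phase genes 3 rose and 0 fell, with a median log2 fold change of 0.38, a share near the background of 5.21% higher and 9.02% in either direction. This count ran from 3 to 8 without 1 library set, with 8 without set 5, 6 without set 6 and 5 without set 4, and from 0 to 9 over all alternatives. The 3 genes were Ccne2 (0.80 ± 0.13), Mcm3 (0.75 ± 0.18) and Cdc6 (0.86 ± 0.22). Mcm3 and Cdc6 did not pass with counts summed by set (adjusted p = 0.102 each). At an unadjusted p under 0.05 there were 12 of the 30 S-phase genes, beside 19.0% of all genes. A log2 fold change above 0 was seen in 24 of the 30, beside 5013 of all 9992 genes. Of 24 tested G2 and mitosis genes 10 rose and 0 fell, with a median of 0.47, among them Kif20a (1.303 ± 0.14), Nusap1 (0.81 ± 0.10), Ccnb1 (0.73 ± 0.10) and Cenpf (0.67 ± 0.13). Their part in the Rrm2 result was not tested. None of 15 tested Trp53 target genes passed, with 2 at an unadjusted p under 0.05 and 0 by DESeq2. Krt20, a marker of differentiated colonocytes, rose to 29.8 ± 9.88 CPM with carmofur, against 4.15 ± 4.07 CPM in controls (2.82 ± 0.51), the 1 of 10 tested epithelial markers that passed.

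The palmitic acid comparisons addressed whether a fatty acid load changes the same enzymes. None of the 8 passed in batch 1, where 0.559% of 9845 genes did, none in batch 2 (0.325%) and none between the batches (0.102%). None had an unadjusted p under 0.05, beside 7.73%, 7.1% and 2.37% of all genes, and DESeq2 called none.

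Tyms had 372, 342 and 317 CPM in batch 1 and 342 and 313 CPM in batch 2, against 239, 295 and 312 CPM in the palmitic acid controls. All treated libraries lay above all controls, by a narrow margin. In batch 1 this held in this direction for 6.61% of all tested genes, and in batch 2 for 10.9%. The log2 fold change was 0.29 ± 0.15 in batch 1 (adjusted p = 0.656) and 0.21 ± 0.17 in batch 2 (adjusted p = 0.938), from comparisons that share their controls.

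Rrm2 had 334, 316 and 242 CPM in batch 1 and 239.9 and 208 CPM in batch 2, against 145, 301 and 332 CPM in the controls, and the groups overlapped. Its log2 fold change was 0.19 ± 0.20 in batch 1 and -0.23 ± 0.23 in batch 2. Rrm1 had 324, 285 and 267 CPM in batch 1 and 254 and 236 CPM in batch 2, against 189.6, 218 and 294 CPM in the controls, with log2 fold changes of 0.32 ± 0.16 (adjusted p = 0.639) and 0.06 ± 0.18. Control replicate 1, the shallowest library at 762888 counts, held the lowest value of Tyms, Rrm1, Rrm2 and Tk1.

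Umps had 61.7, 42.5 and 60.4 CPM in batch 1 and 46.5 and 35.9 CPM in batch 2, against 39.0, 39.7 and 59.3 CPM in the controls. Tk1 had 216, 182 and 156 CPM in batch 1 and 163 and 156 CPM in batch 2, against 114, 182 and 206 CPM in the controls. Both overlapped their controls. Upp1, Dut and Dck rested on 6 to 106 estimated counts per library here, so that their 95% intervals were wide, for example 0.590 to 3.20 for the fold change of Upp1 in batch 1. The median log2 fold change of the 8 enzymes was 0.28 in batch 1 and -0.13 in batch 2, beside 0.01 and -0.01 over all genes. As under carmofur, all 8 values were above 0 in batch 1, beside 5054 of 9845 genes. In batch 2 they were above 0 for 2 of the 8, beside 4832 of 9845 genes. The S-phase and G2 lists, with 29 and 24 genes tested, held 0 genes that passed in either batch.

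**Figure D5:**
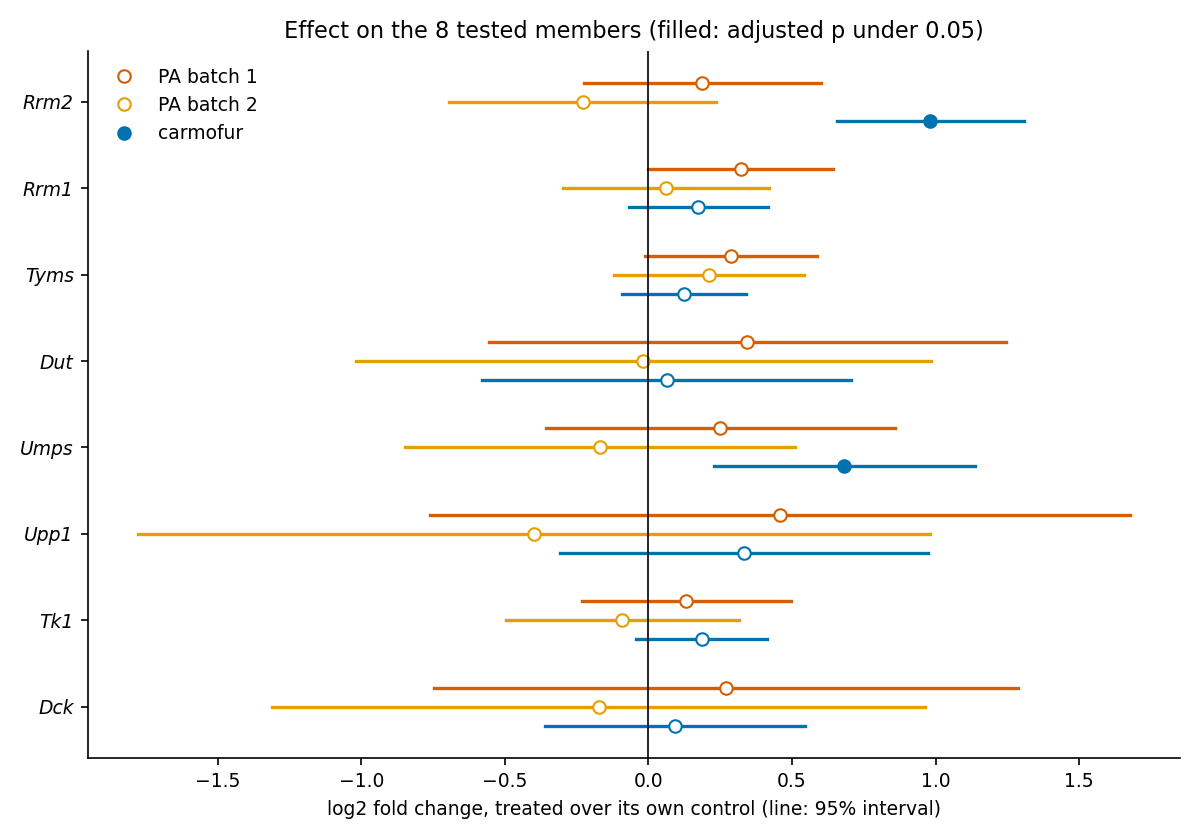
Log2 fold change of the 8 tested enzymes for palmitic acid (PA) batch 1, batch 2 and carmofur, each over its own control (lines: 95% intervals, filled points: adjusted p under 0.05). Rrm2 and Umps under carmofur are filled at 0.98 and 0.68, and the palmitic acid intervals all include 0.

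The difference between the carmofur effect and the palmitic acid batch 1 effect, each against its own control, was not shown for any of the 8 enzymes, beside 0.69% of 14052 genes that passed. The largest was that of Rrm2, 0.80 ± 0.37 on the log2 scale, with a 95% interval of 0.05 to 1.55 (adjusted p = 0.670). It was the 1 enzyme at an unadjusted p under 0.05, beside 6.68% of all genes, and DESeq2 called 0. For Tyms the difference was -0.15, with an interval of -0.64 to 0.33, and for Umps 0.45, with -0.57 to 1.46. Among the surrounding genes Samhd1 passed (1.31 ± 0.28, adjusted p = 0.00978), with -0.24 as its log2 fold change in palmitic acid batch 1. It did not pass without batch 1 replicate 2 (adjusted p = 0.0579) or 3 (0.101).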

How the data were processed

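The authors deposited whole-number estimated counts per gene for 35 libraries. Per the submitters' processing notes these came from Salmon 1.3.0 and mm10, and per the labels' protocols from poly(A)-selected, strand-specific libraries. Which annotation release was used, and how transcripts were combined per gene, is not given in the sources used here. Some 1243 genes without a symbol held 0.0216% of the counts and kept their identifiers. Positions and lengths are from GENCODE M21.

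edgeR 4.0.16 (R 4.3.3; TMM, default expression filter, robust quasi-likelihood) was fitted to 8 palmitic acid, 27 carmofur-experiment and all 35 libraries, with Benjamini-Hochberg adjustment at 0.05. Standard errors are the log2 fold change over the square root of F. Alternatives used DESeq2 1.42.0, limma 3.58.1, RLE factors, no filter, library blocks and sets, and each palmitic acid library or library set left out. The scripts were tested on simulated data. No 2 libraries of a group agreed within sampling noise (178 pairs, lowest chi-square per degree of freedom 7.40).

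The genes and lists were chosen with earlier results of these data known. The text names all 10 enzymes, Rrm2b, up to 4 tested genes of each list by lowest carmofur p, and the 5 genes most like Tyms, Umps and Upp1; 1 further gene of the rule is not reported here. The test between library blocks, the ratios between enzymes, library-size scaling and the fits without carmofur 8, 10 and control 1 or 9 were added after seeing the data.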

Additional observations from a re-analysis of the deposited data

Results flagged for a closer look

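The carmofur effect differed between the blocks of library numbers for Tyms (quasi-likelihood test of edgeR, adjusted by Benjamini-Hochberg, adjusted p = 0.00124) and for Umps (adjusted p = 0.0150), as described in the report. Genes outside the enzymes passed the same test too, among them Nme1, named above for its likeness to Tyms and Umps. Kif20a, a mitotic kinesin, had an adjusted p of 0.0263, with log2 fold changes of 1.04, 1.03 and 2.01 in blocks 1, 2 and 3. Pmaip1, a pro-apoptotic Trp53 target gene, had an adjusted p of 0.0198, with -0.68, 0.80 and 0.22. Krt20 had an adjusted p of 0.0365 and was higher with carmofur in each block.

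The effect of carmofur exceeded that of palmitic acid batch 1 for Samhd1, by 1.31 on the log2 scale (adjusted p = 0.00978), and for Cenpf, a kinetochore protein gene, by 1.18 (adjusted p = 0.0311). The Cenpf difference did not pass without palmitic acid control 1 (adjusted p = 0.142) or 3 (0.120), without batch 1 replicate 1 (0.212), 2 (0.0774) or 3 (0.123), without batch 2 replicate 2 (0.0569), or without library set 2 (0.0532).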

How the results depend on the processing

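Rrm2 under carmofur kept its direction and its call in all 22 alternatives, whereas the count of 2 enzymes called became 1 with RLE size factors, the replicate block, the library set as a correlated group, block 2 alone or counts summed by set, was 3 in block 1 alone and in block 3 alone, and ranged from 1 to 2 without 1 library set. The cause of each change was not tested. Genes called under carmofur numbered 3541 without the filter, 1374 by DESeq2, 334 with counts summed by set, 234, 512 and 588 in blocks 1, 2 and 3 alone, and 740 to 981 without 1 set. For the difference between effects DESeq2 called 212 genes, and leave-outs 22 to 129. Palmitic acid batch 1 gave 21 to 72, batch 2 23 to 48 (DESeq2 55), and batch 2 against batch 1 2 to 14 (no filter 19). The test between blocks gave 105 genes without carmofur 8, 10 and control 1, 111 to 289 without 1 set, and 0 genes and 0 enzymes with summed counts.

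Replicate numbers did not pair libraries (correlations -0.032 to 0.052). With the replicate block the carmofur log2 fold changes of Umps, Tyms and Dck were 0.32, -0.019 and -0.064. In block 2 alone the carmofur values were -0.47 for Dck, -0.78 for Dut, -0.064 for Mcm3, -0.083 for Rrm1, -0.35 for Rrm2b, -0.13 for Tk1, -0.41 for Tyms and -0.44 for Umps. Pmaip1 was -0.70 in block 1 alone, Dut -0.41 in block 3 alone and -0.038 without carmofur 8, 10 and control 1, and Dut in palmitic acid batch 2 was 0.034 without the filter.

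Leaving out 1 library or set turned these low-effect log2 values. Under carmofur Dck ranged from -0.0041 to 0.20, Dut from -0.23 to 0.31 and Tyms from -0.00056 to 0.21. In batch 1 Dck ranged from -0.18 to 0.48, Rrm2 from -0.073 to 0.38 and Tk1 from -0.055 to 0.29. In batch 2 Dck ranged from -0.38 to 0.030, Dut from -0.94 to 0.53, Rrm1 from -0.044 to 0.25, Tk1 from -0.27 to 0.073, Umps from -0.36 to 0.061 and Upp1 from -0.60 to 0.11. Between batches Dck ranged from -0.65 to 0.0023 and Dut from -1.29 to 0.18. For the difference between effects Dck ranged from -0.40 to 0.28, Tk1 from -0.11 to 0.26 and Upp1 from -0.63 to 0.091.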
